A study of Mus musculus with 14 samples.

Results

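The genes described here are 9 transcription factors that set up or maintain the hepatocyte lineage: Onecut1, Onecut2, Hnf4a, Foxa1, Foxa2, Foxa3, Cebpa, Prox1 and Foxq1. They were read from Affymetrix whole-transcript arrays of mouse liver RNA, on which every probe set whose annotation gave exactly 1 gene symbol was considered and the brightest probe set of a gene over all 14 arrays was kept. All 9 members were found among 22180 genes. Each had 1 such probe set except Foxq1, which had a second, dimmer one.

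The livers came from 14 male C57BL/6 mice, 1 liver per array, and every mouse carried Alb-cre, a transgene that places Cre recombinase under the hepatocyte promoter of albumin. Mice with 2 floxed copies of Lmna (LMNA flx/flx; Alb-cre+) are called KO here, mice with 1 floxed copy (LMNA flx/+; Alb-cre+) HET, and mice with none (LMNA +/+; Alb-cre+) WT. Lmna encodes lamin A and lamin C, filament proteins of the nuclear envelope. Which liver cells had lost the gene was not measured here. There were 3 KO and 3 HET livers on HFD, and 3 KO, 3 HET and 2 WT livers on chow. HFD is the Surwit diet given together with 42 g/L of carbohydrate in the drinking water, 55% of it fructose and 45% sucrose, and both feeding regimens lasted 14 weeks. KO mice were 35.3 weeks old on HFD, against 30 to 30.4 weeks for HET mice, and 38.9 weeks old on chow, against 24 to 26.4 weeks for HET and 24.6 to 27 weeks for WT mice. Age and genotype therefore cannot be told apart in any KO comparison below. Nor can age and diet: HET mice were older on HFD than on chow, and KO mice were younger on HFD than on chow.

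Values are log2 intensities after RMA, a method that corrects background, equalizes the arrays and summarizes the probes of a set, so a difference of 1 is a doubling on the linear scale. A difference is given as its estimate ± standard error from limma, a linear model fitted to all genes and arrays with 1 mean per group. Genes were called at a Benjamini-Hochberg adjusted p under 0.05, taken over the 22180 genes of a comparison. The labels do not say whether mice of a group shared a litter, and precision is limited by the small number of livers in each group, lowest for WT with 2. Nor do they say what the letter of an array name stands for. Livers with the same letter had the same age, and every KO liver on HFD had the letter C. The letter C and this group therefore cannot be told apart. In whole liver RNA, fewer hepatocytes and less transcript per hepatocyte cannot be told apart.

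These factors work as a network. Hnf4a is a nuclear receptor that keeps up the broad program of adult hepatocyte genes. Foxa1, Foxa2 and Foxa3 are forkhead proteins that bind DNA in closed chromatin and open liver enhancers, and Foxa1 and Foxa2 are together needed to form the liver bud. Onecut1 (HNF-6) and Onecut2 carry a cut domain and a homeodomain, act in the separation of hepatocytes and bile duct cells, and Onecut1 also acts on glucose and lipid genes of adult mouse liver. Cebpa is a leucine zipper protein that drives genes of adult metabolism, and Prox1 is a homeodomain protein needed for the migration of hepatoblasts and, outside hepatocytes, for lymphatic endothelium. Foxq1 is a forkhead protein known in mice for a role in hair structure and is also made in liver.

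The promoters of the members whose level differed most, or that are textbook targets of another member, are shown first because the factors are known to regulate each other. Windows of 300 bases, 250 before and 50 after a start site, came from RefSeq on build GRCm38.p6. Member windows on 1 chromosome were left out of the search, which left 11 windows for 7 members and none for Onecut2 or Foxq1. The windows of all genes used below were not filtered in this way. The letters searched, on both strands, were ATCAAT and ATCGAT for ONECUT factors, TGTTTAC and TATTTAC for FOXA factors, TTGCNNAA for C/EBP and CAAAGTCCA for HNF4. Each window with a match held 1, and capitals mark it. The Onecut1 window, at chr9:74861671-74861970 on the plus strand, held none of these letters, the Foxa1 window, at chr12:57546062-57546361 on the minus strand, held a FOXA match 141 bases upstream of the start site, and an Hnf4a window, at chr2:163506607-163506906 on the plus strand, held an ONECUT match 59 bases upstream. A Foxa2 window, at chr2:148046920-148047219 on the minus strand, held an ONECUT match 213 bases upstream. The other Hnf4a window, at chr2:163546905-163547204 on the plus strand, held none of these letters. Which start sites these livers used was not measured.
Onecut1: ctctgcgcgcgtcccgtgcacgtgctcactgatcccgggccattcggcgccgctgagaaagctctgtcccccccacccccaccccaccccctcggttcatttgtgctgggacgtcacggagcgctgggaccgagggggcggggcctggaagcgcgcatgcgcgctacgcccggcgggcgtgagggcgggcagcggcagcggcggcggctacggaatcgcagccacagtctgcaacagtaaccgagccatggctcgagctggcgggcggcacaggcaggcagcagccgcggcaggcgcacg
Foxa1: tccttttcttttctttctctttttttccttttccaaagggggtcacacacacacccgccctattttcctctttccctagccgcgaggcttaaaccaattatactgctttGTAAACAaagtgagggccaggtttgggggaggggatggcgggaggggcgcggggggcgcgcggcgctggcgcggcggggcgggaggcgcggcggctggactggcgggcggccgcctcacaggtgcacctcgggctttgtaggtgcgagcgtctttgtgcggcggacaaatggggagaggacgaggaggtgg
Hnf4a: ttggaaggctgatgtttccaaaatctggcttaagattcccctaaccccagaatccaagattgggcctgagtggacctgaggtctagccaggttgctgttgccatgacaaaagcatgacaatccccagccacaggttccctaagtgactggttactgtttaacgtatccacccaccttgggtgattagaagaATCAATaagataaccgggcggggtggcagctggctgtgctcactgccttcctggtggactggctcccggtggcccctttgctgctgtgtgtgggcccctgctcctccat
Foxa2: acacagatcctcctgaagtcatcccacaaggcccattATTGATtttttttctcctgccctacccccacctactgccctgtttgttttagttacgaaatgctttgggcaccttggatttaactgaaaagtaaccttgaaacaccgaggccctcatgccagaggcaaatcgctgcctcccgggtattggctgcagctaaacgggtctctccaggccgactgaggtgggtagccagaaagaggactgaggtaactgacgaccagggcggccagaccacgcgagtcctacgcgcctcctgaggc
Among 32851 such windows of all genes, 7.54% held ATCAAT, 0.925% ATCGAT, 3.65% TGTTTAC, 3.041% TATTTAC, 10.797% the C/EBP letters and 0.475% the HNF4 letters. The 7 windows not printed, of Prox1, Foxa2, Hnf4a, Foxa3 and Cebpa, held none of these letters, and a match describes the letters of a window only.

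The labelled tissue was checked against hepatocyte markers. Of 14 such genes, 13 lay above percentile 90 of all genes by mean level, with albumin at 13.43, and the exception was Ass1, whose probe set averaged 4.61. All 9 members were above the median of every array. Over all genes, the correlation of 2 arrays was 0.989 to 0.994 within a group and 0.980 to 0.994 between groups. Lmna itself, on a single dim probe set, was lower in KO than in WT livers on chow by -0.62 ± 0.14 (limma adjusted p = 0.0393). Its KO minus HET difference was not called on chow (-0.47 ± 0.12, limma adjusted p = 0.0823), where the ranges did not overlap. On HFD the difference was not called either (-0.16 ± 0.12, limma adjusted p = 0.517, overlapping ranges), so on HFD Lmna does not check the labels. Over both diets the difference was called (-0.31 ± 0.09, limma adjusted p = 0.0386). HET chow livers F1 and F2 stood apart in the clock genes: their Dbp minus Arntl difference was -1.45 and -2.65, against 1.39 to 5.35 on all other arrays. Dbp and Arntl are genes with daily rhythms of opposite phase. Results of the members that use HET chow livers are given with and without F1 and F2 where the call changes. Results of other named genes and of gene lists are given with F1 and F2 only. The median over genes was 3.13 to 3.18 on KO HFD arrays, 2.92 to 2.96 on HET HFD arrays, 3.01 to 3.14 on KO chow arrays, 2.90 to 2.99 on HET chow arrays and 2.92 to 2.96 on WT chow arrays.

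Onecut1 had the widest range of the members. In KO livers on chow it stood at 6.22, 6.04 and 5.87, against 9.10, 9.41 and 7.98 in HET livers and 9.42 and 9.69 in WT livers. All 3 KO livers lay below every HET and WT liver on chow, and the HET liver P1 was the lowest control. The KO minus HET difference was -2.78 ± 0.40 (limma adjusted p = 0.0027), a level 6.89-fold lower, and the KO minus WT difference was -3.51 ± 0.45 (limma adjusted p = 0.00123), 11.4-fold lower. Without F1 and F2, with P1 as the lone HET liver on chow and its spread taken from the other groups, the KO minus HET difference was -1.93 with a limma adjusted p = 0.135. The KO minus WT difference does not use these arrays. HET livers stood -0.73 ± 0.45 from WT livers (limma adjusted p = 0.999).

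On HFD the order of Onecut1 was another one. KO livers had 8.19, 8.36 and 7.43, against 7.65, 7.78 and 6.35 in HET livers, and the ranges of the groups overlapped. The KO minus HET difference was 0.73 ± 0.40 (95% confidence interval -0.13 to 1.60, limma adjusted p = 0.333). All 3 KO livers on HFD lay above all 3 KO livers on chow, by 1.95 ± 0.40 (limma adjusted p = 0.0696), and all 3 HET livers on HFD lay below all 3 HET livers on chow, by -1.57 ± 0.40 (limma adjusted p = 0.174). KO mice were 35.3 weeks old on HFD and 38.9 weeks on chow. HET mice were 30 to 30.4 weeks old on HFD and 24 to 26.4 weeks on chow. Within each genotype the lower group was the older one, but on HFD the older KO group had the higher mean, 7.99 against 7.26. With an age term in the fit, the KO minus HET difference on HFD was -0.68 ± 0.998 (limma adjusted p = 0.845). Age has little spread within groups, so its part was not tested apart from genotype and diet. The interaction of genotype and diet, the KO minus HET difference on HFD less that on chow, was 3.52 ± 0.57 with an unadjusted p = 3.43e-05 and an adjusted p = 0.0544 in limma. Without F1 and F2 the interaction was 2.67 (limma adjusted p = 0.277) and the HET diet difference -0.72 (limma adjusted p = 0.766). Without P1 they were 3.95 (limma adjusted p = 0.0112) and -1.996 (limma adjusted p = 0.0333). The KO diet difference passed without P1 or B2 (limma adjusted p down to 0.0302). Averaged over both diets Onecut1 was lower in KO than in HET livers by -1.03 ± 0.28 (limma adjusted p = 0.0389), which combines the fall on chow with an estimate above 0 on HFD. This call was lost without any 1 of 11 arrays, all but P1, B2 and C3 (limma adjusted p up to 0.0968), and without F1 and F2 together (-0.60, limma adjusted p = 0.317). Ordered by mean, the groups ran WT chow, HET chow, KO HFD, HET HFD and KO chow, and of the neighbours in this order only WT chow and HET chow, and HET HFD and KO chow, had ranges that did not overlap.

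**Figure D1:**
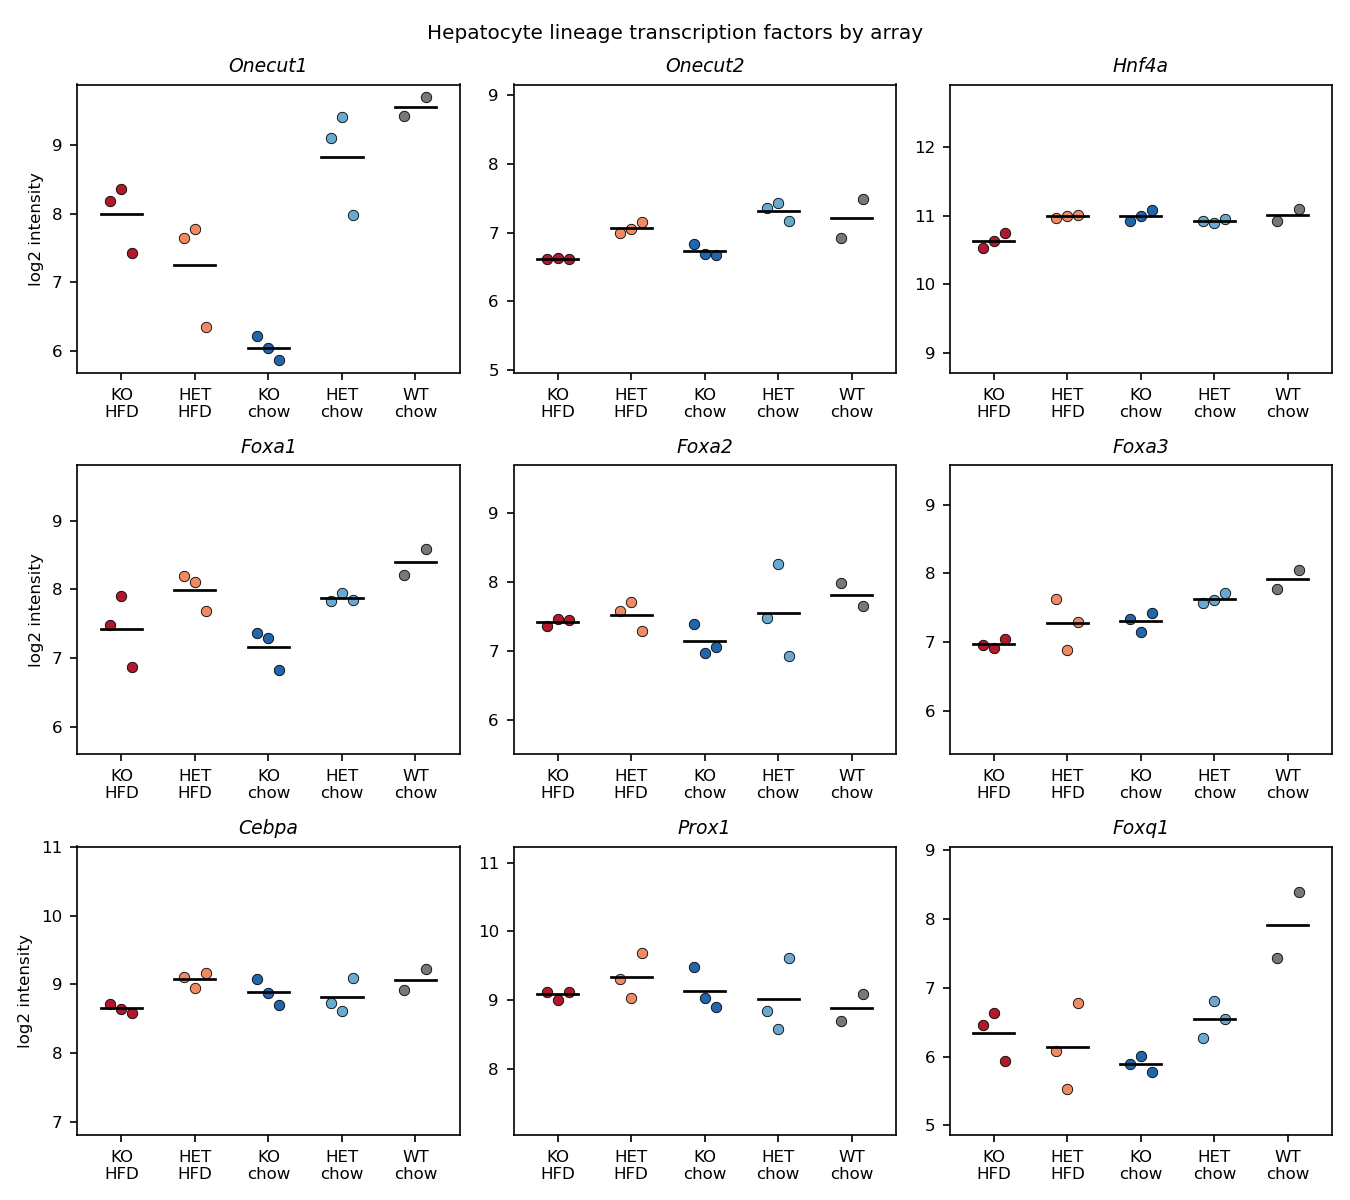
Log2 intensity of the 9 members on each of the 14 arrays, 1 point per liver, with a bar at the group mean and groups along the x axis, each panel spanning the same number of log2 units. Onecut1 lies between 5.87 and 6.22 in KO chow livers, below all other livers, whereas Hnf4a lies between 10.53 and 11.09 in all 14 livers.

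Onecut2, the second ONECUT factor, moved less and in the same direction on both diets. KO livers on chow had 6.84, 6.68 and 6.68, against 7.36, 7.44 and 7.17 in HET livers and 6.93 and 7.50 in WT livers. KO livers on HFD had 6.63, 6.63 and 6.62, against 6.998, 7.06 and 7.16 in HET livers. On either diet every KO liver lay below every control liver of that diet. The KO minus HET difference was -0.59 ± 0.14 on chow (limma adjusted p = 0.046), -0.45 ± 0.14 on HFD (limma adjusted p = 0.0662) and -0.52 ± 0.10 over both diets (limma adjusted p = 0.00408), a level 1.43-fold lower in KO livers. Against WT livers on chow it was -0.48 ± 0.15 (limma adjusted p = 0.19), and without WT liver G1 it passed (-0.76, limma adjusted p = 0.0327). Without F1 and F2 the call on chow was lost (-0.44, limma adjusted p = 0.468), as was the call over both diets (-0.44, limma adjusted p = 0.0553), and the chow call was lost without any 1 of 11 arrays, all but G1, N1 and P1 (limma adjusted p up to 0.18). It was also lost with the array-name letter as a random effect (-0.59, limma adjusted p = 0.0555). The HFD difference passed without G1 or N1 (limma adjusted p down to 0.023). The interaction of genotype and diet was 0.14 ± 0.19 (limma adjusted p = 0.853).

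Hnf4a spanned 10.53 to 11.09 over all 14 livers, a narrow range. KO livers on HFD had 10.53, 10.63 and 10.75, against 10.96, 11.0003 and 11.0036 in HET livers. KO livers on chow had 10.92, 10.99 and 11.08, against 10.92, 10.89 and 10.94 in HET livers and 10.93 and 11.09 in WT livers. The 3 KO livers on HFD were the lowest of all 14 livers, and the chow groups overlapped. The KO minus HET difference on HFD was -0.36 ± 0.10 (limma adjusted p = 0.0423), 1.28-fold lower, and it was 0.08 ± 0.10 on chow (limma adjusted p = 0.807). This call was near the threshold: it was lost without any 1 of 10 arrays, all but G1, N1, P1 and I1 (limma adjusted p up to 0.156), and without F1 and F2 together (-0.36, limma adjusted p = 0.0669), which enter only through the shared spread. With the array-name letter as a random effect it was lost too (-0.35, limma adjusted p = 0.0571). The diet difference in KO livers was -0.36 ± 0.10 (limma adjusted p = 0.156), in HET livers 0.07 ± 0.10 (limma adjusted p = 0.87), and the interaction was -0.43 ± 0.14 (limma adjusted p = 0.332).

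Of the FOXA factors, Foxa1 was lower in KO livers. KO livers on chow had 7.36, 7.29 and 6.82, against 7.82, 7.94 and 7.84 in HET livers and 8.21 and 8.58 in WT livers, so the KO livers lay below all controls. KO livers on HFD had 7.48, 7.91 and 6.88, against 8.20, 8.10 and 7.68 in HET livers, with overlap between the groups. Foxa1 fell by 1.24 ± 0.26 relative to WT livers (limma adjusted p = 0.0322), a level 2.36-fold lower. The KO minus HET difference was -0.71 ± 0.24 on chow (limma adjusted p = 0.185), -0.57 ± 0.24 on HFD (limma adjusted p = 0.185) and -0.64 ± 0.17 over both diets, where it passed (limma adjusted p = 0.0287). The call against WT was lost without N1 (-1.05, limma adjusted p = 0.283) and without G1, H2, I1 or C2. It was also lost with the Dbp minus Arntl difference as a clock term (-1.24, limma adjusted p = 0.0633). The call over both diets was lost without F2, I1, A2, B1, C2 or C4 (limma adjusted p up to 0.0763). Without F1 and F2 together the difference was -1.24 against WT (limma adjusted p = 0.0656) and -0.63 over both diets (limma adjusted p = 0.135).

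Foxa2 and Foxa3 were not called in any of the 8 comparisons. Foxa2 ranged from 7.36 to 7.47 in KO HFD, 7.29 to 7.71 in HET HFD, 6.97 to 7.40 in KO chow, 6.93 to 8.27 in HET chow and 7.65 to 7.99 in WT chow livers. Its HET chow values of 7.48, 8.27 and 6.93 spanned all those of KO chow livers, and the KO minus HET difference on chow was -0.42 ± 0.26 (limma adjusted p = 0.54). All KO chow livers lay below both WT livers, with a difference of -0.68 ± 0.29 that missed the threshold (limma adjusted p = 0.377) and passed with a clock term (-0.97, limma adjusted p = 0.0387). Foxa3, which in mice acts mainly on metabolic genes after birth, had 7.34, 7.14 and 7.42 in KO livers on chow, against 7.58, 7.61 and 7.71 in HET and 7.78 and 8.06 in WT livers. These groups did not overlap, yet the KO minus HET difference of -0.33 ± 0.16 (limma adjusted p = 0.407) and the KO minus WT difference of -0.62 ± 0.18 (limma adjusted p = 0.144) missed the threshold. On HFD Foxa3 had 6.95, 6.92 and 7.05 in KO livers, against 7.63, 6.89 and 7.30 in HET livers, a difference of -0.30 ± 0.16 (limma adjusted p = 0.326). Over both diets it was -0.32 ± 0.11 (limma adjusted p = 0.113), and it passed without HET liver B1 (-0.41, limma adjusted p = 0.0187).

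Cebpa and Prox1, the regulators of adult metabolism and of hepatoblast migration, were not called either. Cebpa had 8.72, 8.65 and 8.59 in KO livers on HFD, against 9.11, 8.95 and 9.17 in HET livers, without overlap, and the difference of -0.42 ± 0.14 missed the threshold (limma adjusted p = 0.103). On chow Cebpa ranged from 8.70 to 9.08 in KO livers, 8.62 to 9.09 in HET livers and 8.91 to 9.22 in WT livers, and the KO minus HET difference was 0.08 ± 0.14 (95% confidence interval -0.24 to 0.39). Prox1 ranged from 9.01 to 9.12 in KO HFD, 9.03 to 9.69 in HET HFD, 8.90 to 9.48 in KO chow, 8.59 to 9.61 in HET chow and 8.69 to 9.09 in WT chow livers. All neighbouring groups of Prox1, in the order of their means, overlapped, and its largest estimate in a single-diet comparison of genotypes was -0.26 ± 0.25, for KO minus HET on HFD (limma adjusted p = 0.624).

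Foxq1 was highest in WT livers. KO livers on chow had 5.89, 6.02 and 5.77, against 6.27, 6.81 and 6.54 in HET livers and 7.43 and 8.39 in WT livers. The 3 genotypes did not overlap on chow. KO livers on HFD had 6.46, 6.64 and 5.93, inside the range of HET livers at 6.09, 5.53 and 6.78. Foxq1 fell by 2.02 ± 0.35 relative to WT livers on chow (limma adjusted p = 0.00909), a level 4.05-fold lower in KO livers. The HET minus WT difference was -1.37 ± 0.35, with an unadjusted p = 0.00165 and an adjusted p = 0.861 in limma, and the KO minus HET difference on chow was -0.65 ± 0.31 (limma adjusted p = 0.393). The KO minus WT call was lost without WT liver N1 (-1.54, limma adjusted p = 0.144), and the second probe set of Foxq1, which averaged 2.89, gave a difference of -0.20 (limma adjusted p = 0.86).

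**Figure D2:**
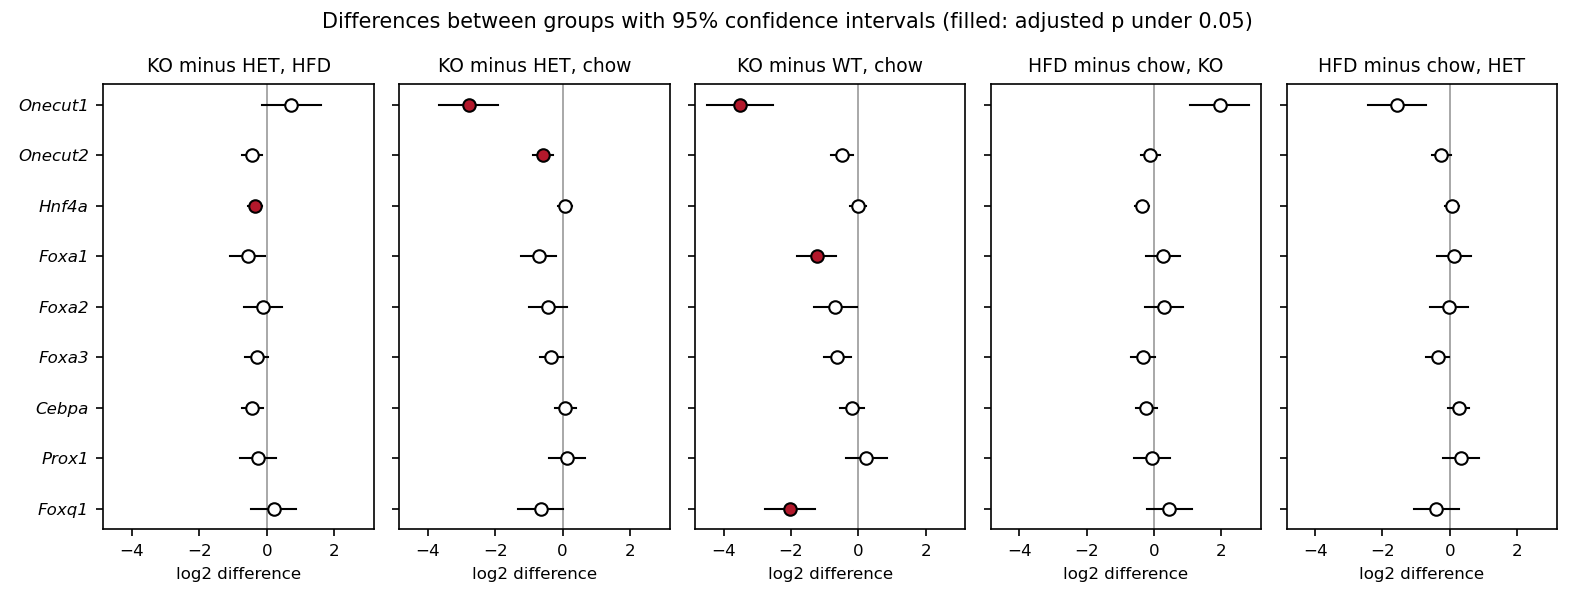
Log2 differences of the 9 members in 5 comparisons, with horizontal lines for 95% confidence intervals and filled points where the adjusted p was under 0.05. The Onecut1 interval for KO minus HET on chow runs from -3.65 to -1.92, and its diet differences point in opposite directions in KO and HET livers.

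Counted over the members, KO livers on chow had 2 of 9 lower than HET livers (Onecut1 and Onecut2) and 3 of 9 lower than WT livers (Onecut1, Foxa1 and Foxq1), and none higher. Over all genes, 1.92% were called between KO and HET livers on chow and 1.65% between KO and WT livers, of which 0.478% and 0.41% of all genes were calls of a lower level. Both comparisons use the same KO livers. The members were chosen with earlier results of these data known, so counts and medians of the set, here and below, only describe it. The median difference of the 9 members was -0.42 for KO minus HET and -0.62 for KO minus WT on chow, beside a median over all genes of -0.01 and 0.00. Between HET and WT livers on chow limma called 0 members and 0% of all genes, with 1 member and 954 genes at an unadjusted p under 0.05.

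On HFD 1 of 9 members was lower in KO than in HET livers, Hnf4a, in a comparison where 7.56% of all genes were called and 2.06% were called lower. Over both diets 3 of 9 were lower (Onecut1, Onecut2 and Foxa1), where 9.43% of all genes were called and 2.9% were called lower. All 9 estimates lay below 0 over both diets, as did 55.4% of those of all genes. For HFD against chow limma called 0 members in KO livers, where 0.316% of all genes were called, and 0 members in HET livers, where 0.198% were called, with 2 members each at an unadjusted p under 0.05. For the interaction of genotype and diet limma called 0 members and 0.0361% of all genes, with 3 members at an unadjusted p under 0.05, Onecut1, Hnf4a and Cebpa.

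The gene medians given above were higher on KO arrays. When each array was centred on its own median, differences moved by -0.12 for KO minus HET and -0.13 for KO minus WT on chow, by -0.22 for KO minus HET on HFD and by -0.17 over both diets. The split of called genes into higher and lower in KO livers was 320 and 106 on chow against HET without centring and 248 and 261 with it, and 276 and 91 against WT without and 213 and 147 with it. On HFD it was 1221 and 456 without and 915 and 3543 with centring, over both diets 1447 and 644 without and 1059 and 4906 with it, and for HFD against chow in KO livers 46 and 24 without and 34 and 43 with it. No called member changed direction, and with centring 5 members were lower in KO livers on HFD (Onecut2, Hnf4a, Foxa1, Foxa3 and Cebpa) and 6 over both diets (the same 5 and Onecut1).

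A set of 35 other liver transcription factors gave the surroundings of the members, of which 33 were measured. None rose or fell for KO against HET on chow in limma, with 4 at an unadjusted p under 0.05, and 1 fell against WT, Hhex, by 1.53 ± 0.23 (limma adjusted p = 0.00422). Hhex is a homeodomain protein needed for the liver bud. On HFD 0 rose and 5 fell in KO relative to HET livers: Klf15, a regulator of amino acid breakdown (-0.78 ± 0.11, limma adjusted p = 0.0012), Nfib (-0.43 ± 0.09, limma adjusted p = 0.0111), Nfix (-0.58 ± 0.13, limma adjusted p = 0.0156), Bcl6, a repressor of growth hormone-regulated genes (-2.65 ± 0.65, limma adjusted p = 0.0255), and Nr0b2, a repressor of bile acid synthesis (-0.98 ± 0.26, limma adjusted p = 0.0377). Over both diets 0 rose and 3 fell, Klf15, Nfib and Nfix, and with HFD in KO livers 1 fell, Klf15 (-0.62 ± 0.11, limma adjusted p = 0.0374). The median of the 33 was -0.07 for KO minus HET and -0.09 for KO minus WT on chow, and -0.17 for KO minus HET on HFD.

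**Figure D3:**
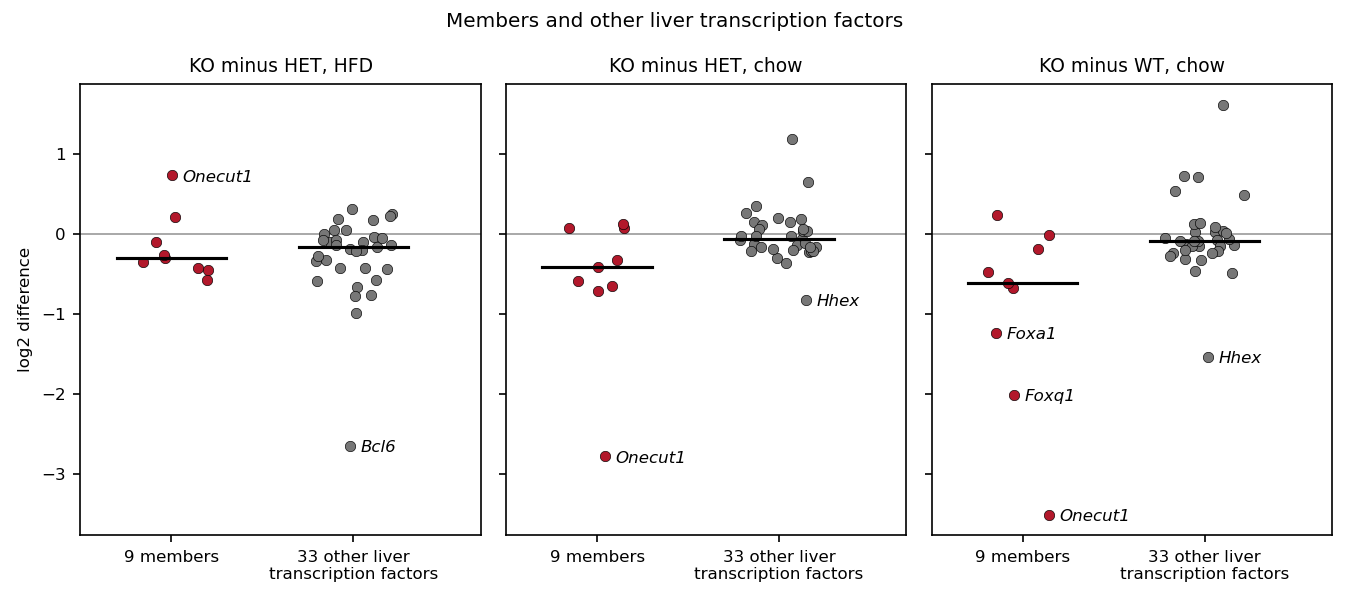
Log2 differences of the 9 members and of the 33 other liver transcription factors in 3 comparisons, 1 point per gene and a bar at the median. Onecut1 is the lowest point in both chow panels, at -2.78 and -3.51, and lies above 0 on HFD, at 0.73.

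Genes with a level pattern like that of each called member over the 14 arrays were found by Pearson correlation of log2 levels, given as a description, since the arrays fall into 5 groups and share their processing. With predicted genes, clone names and some other symbols left out, Hhex was the gene most like Onecut1 (r = 0.91). It was followed by Srgap1, Arid5b, Eid2 and Zfp809 (r = 0.87 to 0.88), and Smad6 (r = -0.89), Nudt4, Bmpr1a, Iffo2 and Epha2 were the most opposed. Srgap1 and Eid2 were dim, with mean levels of 2.35 and 2.04, below the median over genes of 3.02. Hhex had 7.02, 6.60 and 6.65 in KO livers on chow, against 7.92, 7.67 and 7.16 in HET and 8.02 and 8.56 in WT livers. On HFD it had 7.29, 7.28 and 7.02 in KO livers, against 7.05, 6.99 and 6.60 in HET livers. As with Onecut1, KO livers were lowest on chow and P1 was the lowest HET liver, and the HFD groups overlapped. Arid5b is a DNA-binding protein with an ARID domain and Smad6 an inhibitor of BMP signalling. These genes were chosen for following or opposing Onecut1 on the same arrays, so their group differences were not tested as results here.

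**Figure D4:**
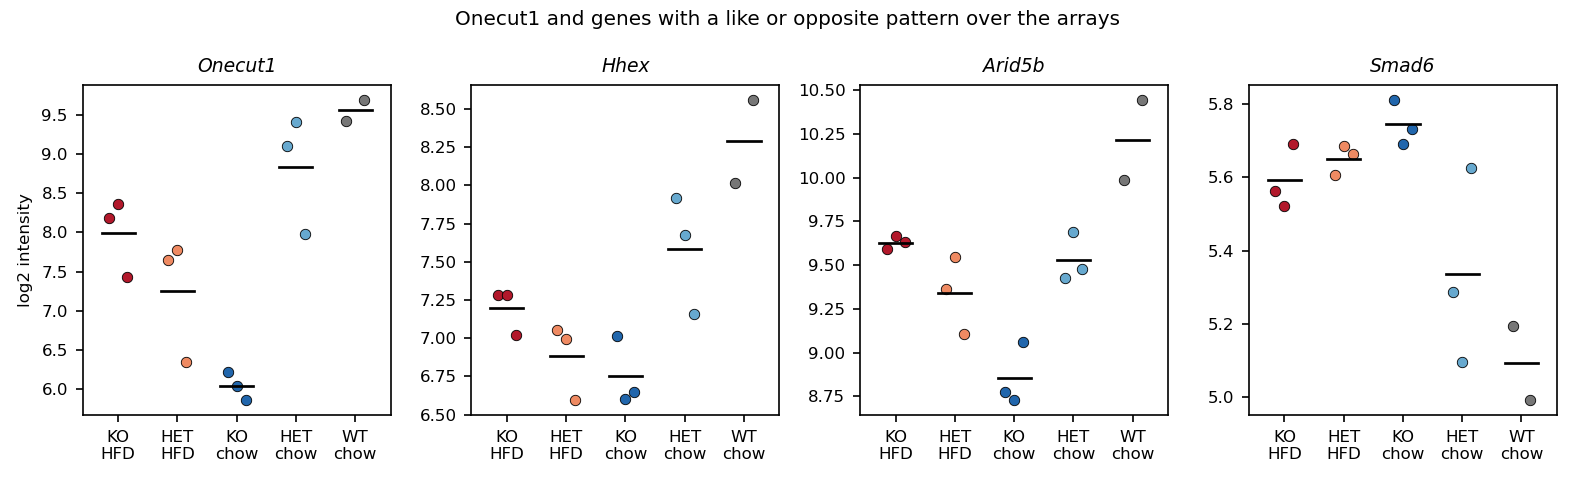
Log2 intensity per liver of Onecut1, of Hhex and Arid5b, which follow it over the arrays, and of Smad6, which runs against it, with bars at group means and a separate y axis for each gene. Hhex and Onecut1 both have their lowest group mean in KO chow livers and their highest in WT chow livers.

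For the other called members the most alike genes were different ones. Onecut2 was most like Slc4a1ap, Ppat, Tmem30a, C4a and Usp34 (r = 0.91 to 0.94) and most opposed to Ccna2, a cyclin of dividing cells (r = -0.96), Psmd8, Itgb5, Unc93b1 and Serpinb6b. Hnf4a was most like Ogfod2, Aff4, Macroh2a1, Dleu2 and Klf15 (r = 0.85 to 0.89) and most opposed to Olfm3, Triobp, Neurl3, Man1c1 and Scnn1g (r = -0.92 to -0.88). Foxa1 was most like Lin7a, Eif5, Map4k5, Idh1 and Daam1 (r = 0.89 to 0.95) and most opposed to Lama2, Notch1, Psmc4, Fads3 and Folh1 (r = -0.91 to -0.89). Foxq1 was most like Dact1, Phlda1, Ly6h, Ahcyl2 and Cldn12 (r = 0.83 to 0.87) and most opposed to Dhx32, Smad6, Hexim2, H2-DMa and Vmn2r115 (r = -0.82 to -0.79). Of the genes in these lists, Scnn1g, Ly6h, Hexim2 and Vmn2r115 were dim, with mean levels of 2.63, 1.41, 2.70 and 1.04, below the median over genes of 3.02.

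Textbook target genes of these factors, 41 in all and 35 measured, were mostly not called. On chow 0 rose and 0 fell in KO livers against HET or WT livers in limma, with 7 and 5 at an unadjusted p under 0.05. On HFD 0 rose and 5 fell in KO relative to HET livers: coagulation factor F7 (-0.58 ± 0.09, limma adjusted p = 0.00226), the urea cycle enzyme Cps1 (-0.53 ± 0.09, limma adjusted p = 0.00433), the tyrosine-degrading enzyme Hpd (-0.54 ± 0.11, limma adjusted p = 0.0112), the apolipoprotein Apoa1 (-0.41 ± 0.10, limma adjusted p = 0.0318) and the apolipoprotein Apob (-0.36 ± 0.10, limma adjusted p = 0.0429). Over both diets 1 rose, the haemoglobin scavenger Hp (0.35 ± 0.09, limma adjusted p = 0.0222), and 4 fell, F7, Cps1, Hpd and the tyrosine aminotransferase Tat (-0.35 ± 0.09, limma adjusted p = 0.0312). With HFD in HET livers 1 rose, the apolipoprotein Apoa4 (3.14 ± 0.31, limma adjusted p = 0.000948). The median of the 35 was -0.03 for KO minus HET on chow and -0.14 on HFD, beside a median over all genes of -0.01 and -0.02.

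Markers of other liver cells moved with genotype, and their part in the differences of the members was not tested. Of 11 measured cholangiocyte markers, genes of bile duct cells, 4 rose and 0 fell in KO relative to HET livers on HFD (Muc1, Prom1, Tspan8 and Cd24a), and 0 rose and 0 fell on chow in limma, with 4 at an unadjusted p under 0.05. The mean level of the list was 3.55 to 4.16 in KO HFD, 3.0006 to 3.12 in HET HFD, 3.45 to 4.07 in KO chow, 3.06 to 3.35 in HET chow and 2.93 to 3.18 in WT chow livers. Of 18 macrophage markers 6 rose and 1 fell on HFD and 3 rose and 1 fell on chow in KO relative to HET livers. The mean level of that list was 6.81 to 7.13 in KO HFD, 5.83 to 6.30 in HET HFD, 6.11 to 6.71 in KO chow, 5.55 to 6.30 in HET chow and 5.62 to 6.05 in WT chow livers. Stellate cell markers, 13 in all, had 3 higher and 1 lower in KO than in HET livers on HFD and 1 higher and 1 lower on chow, and of 13 lymphocyte markers 1, Ncr1, rose on HFD. Of 13 endothelial markers Stab2 fell on HFD (-0.40 ± 0.11, limma adjusted p = 0.0461). In limma 0 of 4 lymphatic endothelial markers, the other cells known for Prox1, were called on either diet, with 1 at an unadjusted p under 0.05 on HFD, and 0 of 5 markers of fat, pancreas and red cells, with 0 at that level. Hepatocyte markers, 14 in all, had a mean level of 11.30 to 11.34 in KO HFD, 11.55 to 11.61 in HET HFD, 11.43 to 11.55 in KO chow, 11.49 to 11.65 in HET chow and 11.53 to 11.61 in WT chow livers. On HFD 2 of them fell, Cps1 and Apoa1, and on chow 0 rose and 0 fell in KO relative to HET livers in limma, with 2 at an unadjusted p under 0.05. The range of the mean hepatocyte marker level overlapped between KO and HET livers on chow and did not on HFD. Whether hepatocyte content had a part in the differences of Onecut1 or Hnf4a was not tested. Of 9 measured fetal liver genes Sox4 rose in KO relative to HET livers on HFD (3.15 ± 0.27, limma adjusted p = 2.98e-05), and of 12 gut and pancreas transcription factors Elf3 rose (1.204 ± 0.23, limma adjusted p = 0.00594). On chow Sox4 was called higher in KO than in WT livers (1.67 ± 0.30, limma adjusted p = 0.0112). Its KO minus HET difference on chow was not called (0.90 ± 0.27, limma adjusted p = 0.128), nor was that of Elf3 (0.49 ± 0.23, limma adjusted p = 0.375).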

How the data were processed

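Total RNA of each liver was purified with a column kit and made into biotinylated cDNA for hybridization, per the labels' protocols. The deposited table holds log2 intensities, 1 for each probe set and array, which the authors made with RMA, per the submitters' processing notes, which name RMA and limma without versions. Median values per array lay between 2.21 and 2.30 over 41345 probe sets, and no further scaling was applied. Over the tested genes alone the medians ran from 2.90 to 3.18 and were higher on KO arrays, so centring was run as an alternative. The deposited table was used whole, with 0 columns left out.

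Probe sets with 1 symbol (23521) were kept and those with several (1814) or none (16010) left out. The brightest of a gene's probe sets on average was used, which gave 22180 genes with no filter on level. limma 3.58.1 in R 4.3.3 was fitted to all 14 arrays with 1 mean per group (9 residual and 3.83 prior degrees of freedom) and 8 contrasts. The steps were tested on simulated data. The members and all 12 gene lists (180 of 198 entries measured) were chosen with earlier results of these data known. Besides the members, genes are named as the 5 most and 5 least correlated with each called member, and as up to 4 called genes of a list with the smallest p, or up to 2 where none was called. The correlation ranking left out predicted genes, clone names, pseudogenes, small RNAs and all symbols that start with Rn. Nr0b2 and Apob lie beyond the 4 of their lists and were chosen after their values were seen. Alternatives were array weights, a trended and robust prior, a filter at the median level, mean probe sets, only the arrays compared, centring, an age term, the array-name letter as a random effect and leaving out single arrays. A clock term and leaving out F1 and F2 were added after seeing the data.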

Additional observations from a re-analysis of the deposited data

Results flagged for a closer look

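Onecut1 differed in opposite directions between HFD and chow in the 2 genotypes: every KO liver on HFD lay above every KO liver on chow, and every HET liver on HFD lay below every HET liver on chow. The difference between these effects was 3.52 ± 0.57 on the log2 scale, with a limma adjusted p = 0.0544, and 2.67 without F1 and F2 (limma adjusted p = 0.277). Hnf4a had the reverse order on a smaller scale. Every KO liver on HFD lay below every KO liver on chow, and every HET liver on HFD above every HET liver on chow. Its diet difference was -0.36 ± 0.10 in KO livers (limma adjusted p = 0.156) and only 0.07 ± 0.10 in HET livers (limma adjusted p = 0.87). These effects differed by -0.43 ± 0.14 (limma adjusted p = 0.332). Both members were picked by such non-overlap, and the share of all genes that meet it was not counted. Neither passed the threshold for the interaction, and age and diet cannot be told apart, since HET mice were older and KO mice younger on HFD than on chow. No group held 4 or more arrays, so single livers were not tested for standing apart.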

How the results depend on the processing

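The fall of Onecut1 in KO livers on chow was called in all fits that left out 1 array, at -3.21 to -2.49 against HET and -3.65 to -3.37 against WT livers. With an age term the estimates were larger, -6.43 ± 2.40 against HET and -7.10 ± 2.38 against WT livers, but neither passed (limma adjusted p = 0.309 and 0.262). With that term 0 members were called in each of the KO comparisons, and 22 of 72 member estimates changed sign, among called ones Onecut2 against HET on chow (0.10) and Foxq1 against WT (0.25). Age has little spread within groups, so its slope rests on few livers. Without F1 and F2, 0 members were called for KO against HET on chow, on HFD and over both diets. For KO against HET on chow, where 2 members were called, 1 was called with only the arrays compared, with the array-name letter as a random effect and with the clock term, and 1 to 2 were called when single arrays were left out. For KO against WT, where 3 members were called, 2 were called with only the arrays compared, and leaving out single arrays gave 1 to 3. For KO against HET on HFD, 2 were called with the level filter, 5 with centring, 0 with only the arrays compared, the letter or the clock term, and 0 to 2 without single arrays. Over both diets 6 were called with centring and 1 to 3 without single arrays. For HFD against chow in KO livers Onecut1 was the 1 member called with array weights, only the arrays compared and the clock term, and 0 to 1 were called without single arrays, as in HET livers. For the interaction 1 was called, Onecut1, with array weights and the level filter, and 0 to 1 without single arrays. No paired analysis was possible because the array names give groups no shared replicate numbers. Counts over all genes moved beyond 1.5 times as follows. With age as a term 201 genes were called for KO against HET on chow, 124 against WT, 249 on HFD and 211 over both diets, 132 and 271 for HFD against chow in KO and HET livers and 206 for the interaction. With only the arrays compared there were 216 against HET and 162 against WT on chow, and 45 and 3 for HFD in KO and HET livers. Centring gave 4458 on HFD and 5965 over both diets. Array weights gave 221 and 67 for HFD in KO and HET livers and 29 for the interaction, the trended prior 110 for HFD in KO livers and 24 for the interaction, the letter 44 and 5, the clock term 128 for HFD in KO livers, and the level filter 28 for the interaction. Without F1 and F2 there were 143 against HET on chow, 6 for HET against WT and 1 for the interaction. Without single arrays the counts were 199 to 520 against HET and 154 to 411 against WT on chow, 971 to 1788 on HFD, 13 to 119 and 13 to 164 for HFD in KO and HET livers, 0 to 10 for HET against WT and 0 to 43 for the interaction.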
